A study of Danio rerio with 6 samples.

Results

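The 10 genes described here encode regulators of mitochondrial biogenesis, proteins that copy and transcribe mitochondrial DNA (mtDNA), and a methyltransferase for ribosomal RNA of the mitochondrion. They were taken by symbol from the deposited expression table, and all 10 were found among its 27335 genes. The set holds the coactivator genes *ppargc1a* and *ppargc1b* and the transcription factor genes *nrf1*, *gabpa* and *esrra*. It also holds the mtDNA transcription genes *tfam*, *tfb2m* and *polrmt*, the methyltransferase gene *tfb1m* and the mtDNA polymerase gene *polg*. They were picked by name and role, with earlier results of these data already known.

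Mitochondria need products of both the nuclear genome and mtDNA. In mammals, coactivators of the PGC-1 family have no DNA-binding domain of their own and act through factors such as NRF1, GABP and ERRα, which bind the promoters of nuclear genes for the respiratory chain. The same factors are known there to act on the genes for TFAM, TFB1M and TFB2M. Through TFAM and TFB2M the nucleus can set the transcription and copy number of mtDNA. Tafazzin, the enzyme whose gene is mutated in these larvae, remodels cardiolipin, a phospholipid of the inner mitochondrial membrane.

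RNA-seq compared maternal zygotic (MZ) *taz* E3/E3 mutants with *taz* +/+ wild-type larvae, both at 5 days post fertilization (dpf). The E3 allele is a CRISPR/Cas9-induced deletion of 1 base pair in exon 3 that shifts the reading frame, and MZ larvae lack wild-type transcript from the mother as well as from their own genome. Each genotype had 3 pools of 25 whole larvae, with 1 library per pool, so each value is a mixture of all tissues. In such bulk RNA, fewer cells of a type and less RNA per cell cannot be told apart. One mutant allele was sequenced. The methods give all pools the same clutch while the results describe separate incrosses of mutants and of wild-type siblings, so cross and genotype cannot be told apart.

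Levels are FPKM, fragments scaled to transcript length and to the size of the library, as the authors deposited them. FPKM summed to 501725 to 522531 over the mutant pools and to 512587 to 540974 over the wild-type pools. From the smallest steps between low values, the wild-type pools were estimated to hold 0.84 to 1.24 times the fragments of mutant pool 0, and the other mutant pools 1.26 and 1.28 times, where 0 to 2 number the deposited columns. The *tafazzin* transcript fell to 6.09, 4.58 and 3.84 FPKM in the mutant pools, against 12.3, 12 and 8.53 FPKM in the wild-type pools (adjusted p = 0.0468 from limma). This call ended when any mutant pool, or wild-type pool 0 or 1, was left out (limma gave an adjusted p of 0.0806 to 0.184), and under 5 of the 7 other alternatives (0.0515 to 0.173). The leading principal component (36.1% of the variance) placed the mutant pools at 16.4 to 35.2 and the wild-type pools at -32 to -10.5, with wild-type pool 2 the nearest to the mutants. Markers of muscle, heart, liver, neurons, blood and ionocytes were above 0 in every pool. Of 8 ionocyte markers 3 passed as higher, with summed levels of 207 to 332 FPKM in mutant pools and 108 to 124 FPKM in wild-type pools. Those 3 were *trpv6*, *ca2* and *rhcgb*. *trpv6* averaged 49.3 FPKM in mutants and 4.39 FPKM in wild-type, and *ca2* 89.7 and 35.9 FPKM, so both weigh heavily in the sums. All 8 fitted log2 fold changes were positive, but *foxi3a* and *foxi3b* did not pass (adjusted p = 0.317 and 0.344 from limma). Of 12 skeletal muscle markers 1 passed as lower, and 2, or 16.7%, had an unadjusted p under 0.05 by limma. Their sums were 9189 to 9610 FPKM in mutant pools and 9207 to 11448 FPKM in wild-type pools. Of the fitted log2 fold changes of these 12 markers 11 were negative and 1 positive, with a median of -0.13 against 0.002 over all genes tested. None of 8 neuronal, 8 cardiac, 9 hepatocyte or 6 erythroid markers passed in either direction by limma. At an unadjusted p under 0.05 there were 0, 1, 4 and 2 of them, or 0.0%, 12.5%, 44.4% and 33.3%. Of all genes tested 16.3% had such a p and 0.911% passed. Of the hepatocyte markers called so, 2 were higher and 2 lower in mutants, and of the erythroid ones 1 was higher and 1 lower. Of 6 neutrophil markers listed only 4 were found, and 1 of these, *mmp9*, passed as higher (log2 fold change 2.14, adjusted p = 0.026 from limma). *mmp13a* was also higher without passing (log2 fold change 1.05, adjusted p = 0.0741 from limma). For *lyz* and *mpx* the genotypes overlapped, with log2 fold changes of -0.04 and 0.19 (adjusted p = 0.948 and 0.804 from limma). The sums of the 4 were 36.9 to 52.2 FPKM in mutant pools and 31.1 to 39 FPKM in wild-type pools. The paper counted fewer neutrophils in MZ mutant larvae at 5 dpf. Which cells the transcripts of these 4 genes came from is not known, and cell number was not tested here.

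The 10 genes spanned a wide range of levels, with *ppargc1b* and *nrf1* at the top and *polg* at the bottom in both genotypes. In mutants the mean FPKM was 23.3 for *ppargc1b*, 20.2 for *nrf1*, 19.5 for *esrra*, 16.9 for *ppargc1a* and 15.1 for *tfb2m*. The other 5 genes lay lower in mutants, with means of 7.46 FPKM for *tfam*, 6.23 for *gabpa*, 4.46 for *polrmt*, 2.77 for *tfb1m* and 1.38 for *polg*. In wild-type larvae the order was *ppargc1b* at 19.1 FPKM, *nrf1* at 18.7, *ppargc1a* at 17.6, *tfb2m* at 14.1, *esrra* at 13.6, *gabpa* and *tfam* both at 6.2, *polrmt* at 4.17, *tfb1m* at 3.9 and *polg* at 2.01. The order was thus the same at both ends, while *esrra* stood in the third place in mutants and in the fifth in wild-type. Among mutants the pools of *nrf1*, *esrra*, *ppargc1a* and *tfb2m* overlapped from each gene to the next, as did those of *tfam* and *gabpa*. Among wild-type pools only 3 steps between neighbours were free of overlap, those from *ppargc1a* to *tfb2m*, from *esrra* to *gabpa* and from *tfb1m* to *polg*. Averaged over all 6 pools, *ppargc1b* was above 84.6% of the genes tested and *polg* above 14.8%.

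**Figure D1:**
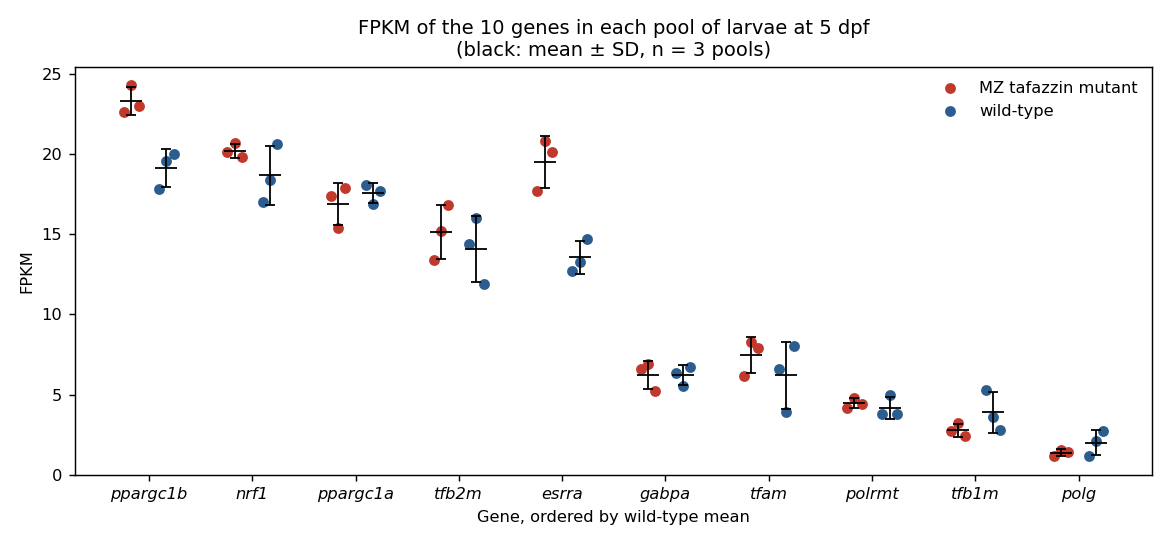
FPKM of each gene (y axis) in the 3 mutant pools (red) and the 3 wild-type pools (blue), with genes ordered along the x axis by wild-type mean and black marks giving the mean ± SD. The red points of *ppargc1b* and *esrra* lie wholly above the blue ones, whereas the pools of the other 8 genes overlap.

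None of the 10 genes passed the test between genotypes. The test covered the 21843 genes whose mean reached 0.5 FPKM, all 10 included. Of these 0.911% had an adjusted p under 0.05 from limma on log2(FPKM + 1), 0.696% as higher and 0.215% as lower in mutants. At an unadjusted p under 0.05, 2 of the 10 were called, *esrra* and *ppargc1b*, both higher in mutants, against 16.3% of all genes tested, 9.88% as higher and 6.4% as lower. These 2 genes were also the only ones whose mutant and wild-type pools did not overlap, a pattern seen in 22.3% of all genes tested, 11.9% with the mutants above and 10.5% with the mutants below. Taken in either direction both shares, 20.0% of the 10, are near those of the whole table. As higher alone they lie above the 9.88% and 11.9%, but each rests on only 2 genes. Of the fitted log2 fold changes 7 were positive and 3 negative, with a median of 0.09 against 0.002 over all genes tested. Because 1 is added to each FPKM, the fold changes of low genes come out too small.

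**Figure D2:**
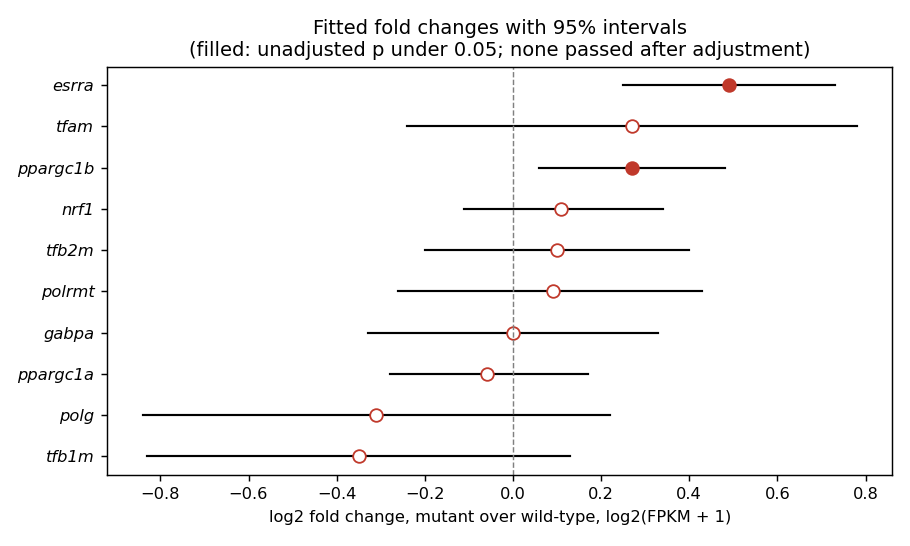
Fitted log2 fold change of mutant over wild-type (x axis, on the log2(FPKM + 1) scale) for each of the 10 genes, with lines for the 95% interval and filled points for an unadjusted p under 0.05. The intervals of *esrra*, 0.25 to 0.73, and *ppargc1b*, 0.06 to 0.48, lie above 0 before adjustment, and those of the other 8 genes include 0.

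Of the coactivators, *ppargc1a*, which encodes PGC-1α and is known in mammals for its response to cold, fasting and exercise, lay close together in the 6 pools. It was at 17.4, 15.4 and 17.9 FPKM in mutant pools 0, 1 and 2, against 18.1, 16.9 and 17.7 FPKM in wild-type pools. Mutant pool 1 held the lowest value and the genotypes overlapped. Its log2 fold change of -0.06 had a 95% interval of -0.28 to 0.17 (adjusted p = 0.821 from limma), which on the linear scale spans 0.822 to 1.12 times the wild-type level. Leaving out single pools gave log2 values between -0.1 and 0.00. In GRCz11 coordinates, used throughout, *ppargc1a* lies on chromosome 7 from 70578428 to 70669850.

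The second coactivator gene, *ppargc1b*, encodes PGC-1β, which in mammals is tied to the basal content of mitochondria and to lipid metabolism. It was at 22.6, 24.3 and 23 FPKM in the mutant pools, against 17.8, 19.6 and 20 FPKM in the wild-type pools. Every mutant pool lay above every wild-type pool, and the spread within a genotype was narrow (23.3 ± 0.874 FPKM in mutants and 19.1 ± 1.19 FPKM in wild-type, SD, n = 3 pools each). This difference, 0.27 on the log2 scale with a standard error of 0.09, did not pass (adjusted p = 0.198 from limma). Its place is chromosome 14, from 24935053 to 25001584. Leaving out single pools moved it between 0.22 and 0.3. The third member of the family, *pprc1*, was at 7.58, 6.69 and 8.13 FPKM in mutant pools, against 3.81, 4.2 and 7.76 FPKM in wild-type pools. There wild-type pool 2 lay inside the mutant range while the other wild-type pools were well below it (log2 fold change 0.49, adjusted p = 0.326 from limma).

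Among the 10 genes, *esrra* had the fitted fold change of greatest size. It is the gene of ERRα, an orphan nuclear receptor through which PGC-1 coactivators act on genes of oxidative metabolism. It stood at 17.7, 20.8 and 20.1 FPKM in the mutant pools, against 12.7, 13.3 and 14.7 FPKM in the wild-type pools. The lowest mutant pool stood clear of the highest wild-type pool, and the mean was 19.5 ± 1.62 FPKM in mutants and 13.6 ± 0.983 FPKM in wild-type (SD, n = 3 pools each), a ratio of 1.44. On the log2 scale the difference was 0.49 with a standard error of 0.11 (95% interval 0.25 to 0.73), and its adjusted p of 0.0714 from limma missed the threshold of 0.05. In size it exceeded 90.0% of the genes tested. For *esrra* and for *ppargc1b* the exact permutation test over pools gave p = 0.1 (two-sided), the smallest that 3 pools against 3 allow. Under every alternative run, the log2 fold change of *esrra* stayed between 0.45 and 0.56 and the adjusted p from limma between 0.052 and 0.224, so it passed under none of them. The gene lies on chromosome 21 from 26606671 to 26636691. Of the 8 ionocyte markers, 3 passed as higher and 5 had an unadjusted p under 0.05, or 62.5% against 16.3% of all genes tested, and their part in the value of *esrra* was not tested.

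Genes of 4 related receptors of the ERR family had fitted values on both sides of 0. *esrrga*, one of the genes of ERRγ, was at 20.9, 21.1 and 20.1 FPKM in mutant pools, against 20.8, 21.7 and 20.5 FPKM in wild-type pools, nearly the same in all 6. Its paralog *esrrgb* was low, at 2.73, 2.28 and 3.94 FPKM in mutants, against 0.557, 1.49 and 2.21 FPKM in wild-type, without overlap (log2 fold change 0.76, adjusted p = 0.237 from limma). *esrrb* averaged 5.84 ± 1.2 FPKM in mutants and 6.66 ± 0.467 FPKM in wild-type (SD, n = 3 pools each). *esrrd* averaged 4.59 ± 2.17 FPKM in mutants and 3.72 ± 1.21 FPKM in wild-type. None of the 4 passed by limma, where only *esrrgb* had an unadjusted p under 0.05, and differences between the paralogs were not tested.

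Besides *esrra*, the genes of 2 further factors that bind promoters of respiratory chain genes showed small fitted differences. *nrf1*, which encodes nuclear respiratory factor 1, was at 20.1, 20.7 and 19.8 FPKM in the mutant pools, against 17, 18.4 and 20.6 FPKM in the wild-type pools. Wild-type pool 2 alone reached the mutant range, and the log2 fold change was 0.11 (95% interval -0.11 to 0.34, adjusted p = 0.621 from limma). It is placed on chromosome 4 from 15081384 to 15103696. On the log2 scale *nrf1* was at 0.18 in the absence of wild-type pool 2 and at 0.05 in that of wild-type pool 0 (adjusted p of 0.36 and 0.883 from limma). *gabpa*, the DNA-binding subunit of GABP, was at 6.57, 6.89 and 5.23 FPKM in mutant pools, against 6.33, 5.53 and 6.75 FPKM in wild-type pools. The genotypes overlapped fully for *gabpa* and the log2 fold change was 0.00 (95% interval -0.33 to 0.33, adjusted p = 0.998 from limma). The gene occupies chromosome 9 from 35014512 to 35025524. Its partner *gabpb1*, a subunit that activates transcription, was lower than *gabpa* in every pool, at 3.5, 2.29 and 3.68 FPKM in mutants, against 3.8, 3.97 and 2.53 FPKM in wild-type, again with overlap. The paralog *gabpb2a* was higher, with means of 6.32 FPKM in mutants and 7.35 FPKM in wild-type. *gabpb2b* averaged 4.07 FPKM in mutants and 5.29 FPKM in wild-type, and neither paralog passed (adjusted p = 0.529 and 0.449 from limma).

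The genes *tfam*, *polrmt* and *tfb2m* belong to the machinery that transcribes mtDNA. *tfam* encodes the protein that packages mtDNA and helps to start its transcription. It was at 6.17, 8.29 and 7.93 FPKM in mutant pools, against 6.61, 3.94 and 8.05 FPKM in wild-type pools. Wild-type pool 1 was the lowest of the 6 and wild-type pool 2 lay among the mutants. With all pools the log2 fold change was 0.27 (95% interval -0.24 to 0.78, adjusted p = 0.596 from limma), while it was 0.02 without wild-type pool 1 and 0.46 without wild-type pool 2. The gene lies on chromosome 12 from 7254111 to 7263958.

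The single-subunit RNA polymerase of mitochondria is encoded by *polrmt*, on chromosome 22 from 19016236 to 19102368. Its levels were 4.18, 4.78 and 4.44 FPKM in mutants, against 3.77, 4.97 and 3.78 FPKM in wild-type, so the mutant pools lay inside the wild-type range. A log2 fold change of 0.09 was fitted (95% interval -0.26 to 0.43, adjusted p = 0.827 from limma), which lay between 0.03 without wild-type pool 0 and 0.19 without wild-type pool 1. TFB2M, which opens the promoter together with this polymerase, is encoded by *tfb2m* on chromosome 17 from 12058467 to 12073356. *tfb2m* was at 13.4, 15.2 and 16.8 FPKM in mutants, against 14.4, 16 and 11.9 FPKM in wild-type. The genotypes overlapped, and the log2 fold change of 0.1 (95% interval -0.2 to 0.4, adjusted p = 0.764 from limma) was -0.01 without wild-type pool 2, the lowest of the 6.

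*tfb1m*, which shares ancestry with *tfb2m* but encodes a methyltransferase for ribosomal RNA of the mitochondrion, had a negative fitted value. It was at 2.72, 3.2 and 2.4 FPKM in the mutant pools, against 5.31, 3.61 and 2.79 FPKM in the wild-type pools. Every mutant value was below the wild-type mean, but wild-type pool 2 lay among the mutants and wild-type pool 0 stood far above the rest. The log2 fold change was -0.35 (95% interval -0.83 to 0.13, adjusted p = 0.452 from limma), with -0.15 in the absence of wild-type pool 0 and -0.52 in that of wild-type pool 2. *tfb1m* shares a locus of the deposited table, chromosome 17 from 49220127 to 49280322, with *cldn20*, a claudin gene, and how reads were assigned between the pair is not stated. *cldn20* was at 6.76, 6.21 and 5.32 FPKM in mutants, against 4.97, 6.91 and 6.67 FPKM in wild-type (adjusted p = 0.981 from limma).

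The catalytic subunit of the polymerase that copies mtDNA is encoded by *polg*, the lowest of the 10 genes. Its FPKM was 1.16, 1.57 and 1.4 in mutant pools, against 1.18, 2.11 and 2.74 in wild-type pools. Mutant pools lay closer together than the wild-type pools, with wild-type pool 0 among the mutants. Their coefficient of variation, 15.1%, was still among the higher ones of the 10 genes in mutants. Its log2 fold change was -0.31 (95% interval -0.84 to 0.22, adjusted p = 0.552 from limma), with -0.53 in the absence of wild-type pool 0 and -0.14 in that of wild-type pool 2. The accessory subunit gene *polg2* was likewise low, at 1.72, 2.58 and 2.2 FPKM in mutants, against 2.42, 3.76 and 2.54 FPKM in wild-type (log2 fold change -0.3, adjusted p = 0.503 from limma). *polg* shares chromosome 25 from 8447564 to 8513295 with *fanci*, a gene of DNA crosslink repair. *fanci* was at 2, 1.69 and 1.72 FPKM in mutants, against 1.48, 0.877 and 1.92 FPKM in wild-type (adjusted p = 0.641 from limma).

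Spread between pools differed among the 10 genes. In wild-type larvae the coefficient of variation was 33.6% for *tfam*, 32.9% for *tfb1m* and 39.1% for *polg*, while the same genes had 15.2%, 14.5% and 15.1% in mutants. *nrf1* had the lowest value in mutants, 2.32%, against 9.65% in wild-type. The coactivator genes were among the steadier ones, *ppargc1b* with 3.75% in mutants and 6.19% in wild-type, and *ppargc1a* with 7.91% in mutants and 3.3% in wild-type. Mutant pool 1 held the highest mutant value of 8 of the 10 genes, and mutant pool 0, the shallowest mutant pool, held the lowest of 6. Among wild-type pools, pool 2 held the highest value of 6 genes and pool 0, the deepest wild-type pool, the lowest of 5. How often each pool was highest or lowest over all genes tested was not counted, and the part of depth was not tested. The levels of the 10 genes summed to 112, 121 and 119 FPKM in the mutant pools, against 103, 104 and 109 FPKM in the wild-type pools.

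Ratios taken within a pool do not depend on how libraries were scaled against each other. The pairs were chosen after their values were seen, so the ratios are descriptive and restate the values above. *esrra* over *ppargc1a* was 1.02, 1.36 and 1.12 in mutant pools, against 0.705, 0.788 and 0.828 in wild-type pools. The receptor was thus above the coactivator in FPKM in each mutant pool and below it in each wild-type pool. *ppargc1b* over *ppargc1a* was 1.3, 1.58 and 1.29 in mutants, against 0.985, 1.16 and 1.13 in wild-type, also without overlap. *tfb2m* over *tfb1m* was 4.93, 4.76 and 6.98 in mutants, against 2.72, 4.42 and 4.28 in wild-type, without overlap although neither gene alone separated the genotypes. How often other gene pairs separate the pools was not counted, and *tfb1m* was low, at 2.4 to 5.31 FPKM.

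**Figure D3:**
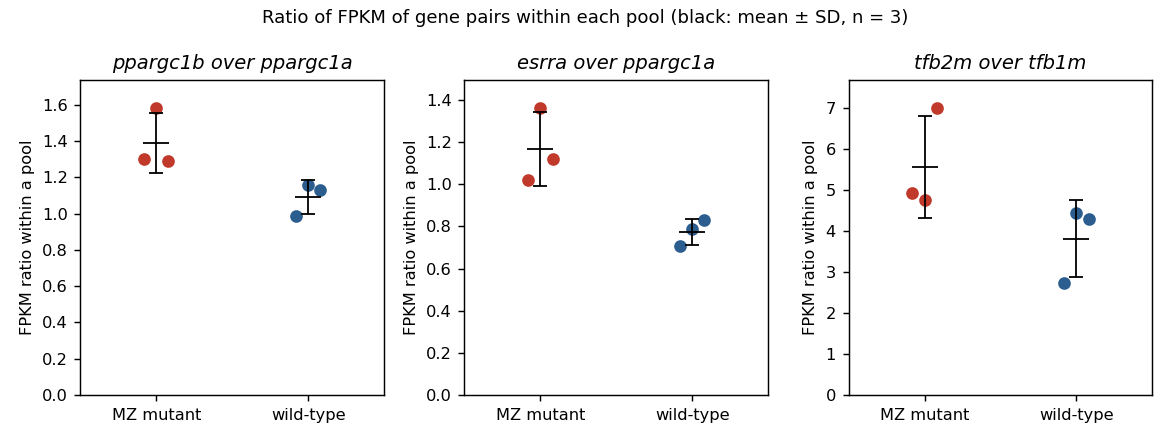
Ratio of the FPKM of 2 genes within each pool (y axis, starting at 0) for 3 pairs, with mutant pools in red at the left of each panel, wild-type pools in blue at the right and black marks for the mean ± SD. The ratio of *esrra* to *ppargc1a* averages 1.17 ± 0.172 in mutants and 0.774 ± 0.0628 in wild-type (SD, n = 3 pools each).

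The wider network around the 10 genes was read from 5 lists. Of 40 further coactivators, receptors and upstream regulators none passed by limma. At an unadjusted p under 0.05 there were 4 above and 2 below wild-type, 15.0% of the list against 16.3% of all genes tested, and the median log2 fold change was 0.02. Nearest to the threshold were *pparda*, a lipid-sensing nuclear receptor gene, *yy1b*, a zinc finger factor gene, and *prkaa1*, which encodes a catalytic subunit of the energy sensor AMPK. *pparda* was at 5.8, 6.24 and 6.34 FPKM in mutants, against 3.26, 4.03 and 4.31 FPKM in wild-type (log2 fold change 0.56, adjusted p = 0.111 from limma). *yy1b* was at 11.9, 11.6 and 8.94 FPKM in mutants, against 15.1, 17.4 and 14.5 FPKM in wild-type (log2 fold change -0.50, adjusted p = 0.118 from limma). *prkaa1* was at 14.6, 17.5 and 16.9 FPKM in mutants, against 12.6, 12.7 and 11.7 FPKM in wild-type (log2 fold change 0.37, adjusted p = 0.14 from limma). For all 3 the genotypes did not overlap, as for 9 of the 40 genes, or 22.5%, which is about the 22.3% of all genes tested.

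Among 19 genes of mtDNA replication, repair and copy number none passed by limma. At an unadjusted p under 0.05 there were 3 above and 1 below wild-type, 21.1% of the list against 16.3% of all genes tested, and the list's median log2 fold change was 0.02. The mtDNA helicase gene *twnk*, listed under its older symbol *peo1*, was at 5.79, 4.46 and 3.82 FPKM in mutants, against 3.38, 4.62 and 4.29 FPKM in wild-type. *endog*, the gene of the mitochondrial nuclease endonuclease G, had the smallest p of the list, at 5.24, 4.24 and 6.77 FPKM in mutants, against 2.17, 1.8 and 3.22 FPKM in wild-type (log2 fold change 0.92, adjusted p = 0.0853 from limma). *ogg1*, a glycosylase gene for the repair of oxidized guanine, was at 3.04, 4.36 and 4.18 FPKM in mutants, against 5.11, 6.46 and 6.48 FPKM in wild-type (log2 fold change -0.53, adjusted p = 0.166 from limma). *mpv17l2* had a log2 fold change of 0.47 (adjusted p = 0.229 from limma).

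One gene of mitochondrial nucleotide supply rose in the mutants, and 18 of the 19 on that list did not pass. It was *slc25a33*, whose product carries pyrimidine nucleotides across the inner mitochondrial membrane. *slc25a33* was at 32.2, 32.3 and 43.3 FPKM in mutant pools, against 14.5, 14.3 and 17.1 FPKM in wild-type pools. The lowest mutant pool was far above the highest wild-type pool, and the means had a ratio of 2.35. On the log2 scale the difference was 1.17 with a standard error of 0.13 (adjusted p = 0.0103 from limma). Leaving out wild-type pool 0 or 1 gave an adjusted p of 0.0664 or 0.0648 from limma and ended the call, which was also lost without a filter on low genes (0.111) and without the variance trend (0.0508), while the log2 fold change stayed between 1.03 and 1.25. A second carrier of such nucleotides, *slc25a36a*, was at 49.2, 51.4 and 36.5 FPKM in mutants, against 75.6, 76.7 and 51.9 FPKM in wild-type, on the opposite side without passing (log2 fold change -0.56, adjusted p = 0.167 from limma). At an unadjusted p under 0.05 the list had 6 genes above and 3 below wild-type, 47.4% against 16.3% of all genes tested, with a median log2 fold change of 0.12. Next in p were *abat*, which encodes GABA transaminase, and *samhd1*, which encodes an enzyme that degrades deoxynucleotides. Both were higher in mutants without passing (log2 fold changes 0.53 and 0.84, adjusted p = 0.0996 and 0.101 from limma). *samhd1* was low, with means of 1.76 FPKM in mutants and 0.545 FPKM in wild-type. *slc25a36a*, *twnk*, *polg2*, *gabpb1*, *gabpb2a*, *gabpb2b*, *pprc1* and the ERR paralogs were singled out after their values were seen.

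Of 30 genes of mitochondrial transcription and RNA handling none passed by limma. At an unadjusted p under 0.05 there were 3 above wild-type and 0 below, 3 of 30 and thus a smaller share than the 16.3% of all genes tested, and the median was 0.12 on the log2 scale. *lrpprc*, which stabilizes mitochondrial mRNA, came nearest, at 23, 24.3 and 23.8 FPKM in mutants, against 13.5, 15.7 and 17.4 FPKM in wild-type (log2 fold change 0.59, adjusted p = 0.0542 from limma). It passed once wild-type pool 2 was left out (adjusted p of 0.0328 from limma) and with a filter of 5 FPKM (0.0379). The RNA processing genes *hsd17b10* and *elac2* had log2 fold changes of 0.47 and 0.42 (adjusted p = 0.161 and 0.264 from limma), each without overlap between genotypes. On this list 5 of the 30 genes, or 16.7%, did not overlap, against 22.3% of all genes tested.

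The list of nuclear-encoded respiratory and import genes, the kind of genes that NRF1, GABP and ERRα are known to act on in mammals, had the highest median of the 5 network lists, a log2 fold change of 0.27 over 31 genes. Of these 28 had a positive value, against 11013 of all 21843 genes tested. Between genotypes 16, or 51.6%, did not overlap, against 22.3% of all genes tested. The shares over all genes tested were not matched for level. At an unadjusted p under 0.05 there were 14 above and 0 below wild-type, 45.2% of the list against 16.3% of all genes tested. One rose, *cycsb*, a cytochrome c gene, at 124, 108 and 166 FPKM in mutant pools, against 53.3, 61.3 and 64.6 FPKM in wild-type pools (log2 fold change 1.12, adjusted p = 0.019 from limma). Its call ended without mutant pool 0, wild-type pool 0 or wild-type pool 1, where limma gave an adjusted p of 0.0753 to 0.0911, and also without a filter (0.144) and without the trend (0.0715). The other 30 did not pass, of which *uqcrfs1* and *ndufa9a*, subunit genes of respiratory complexes, were nearest, at log2 fold changes of 0.46 and 0.41 (adjusted p = 0.0613 and 0.0958 from limma). With quantile normalization the log2 fold changes of *uqcrfs1* and *ndufa9a* were 0.38 and 0.31. This list was chosen with results of these same pools known, so its count is not independent evidence of a direction. The part of the ionocyte markers in this list's values was not tested. Transcripts encoded by mtDNA were not analysed here.

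**Figure D4:**
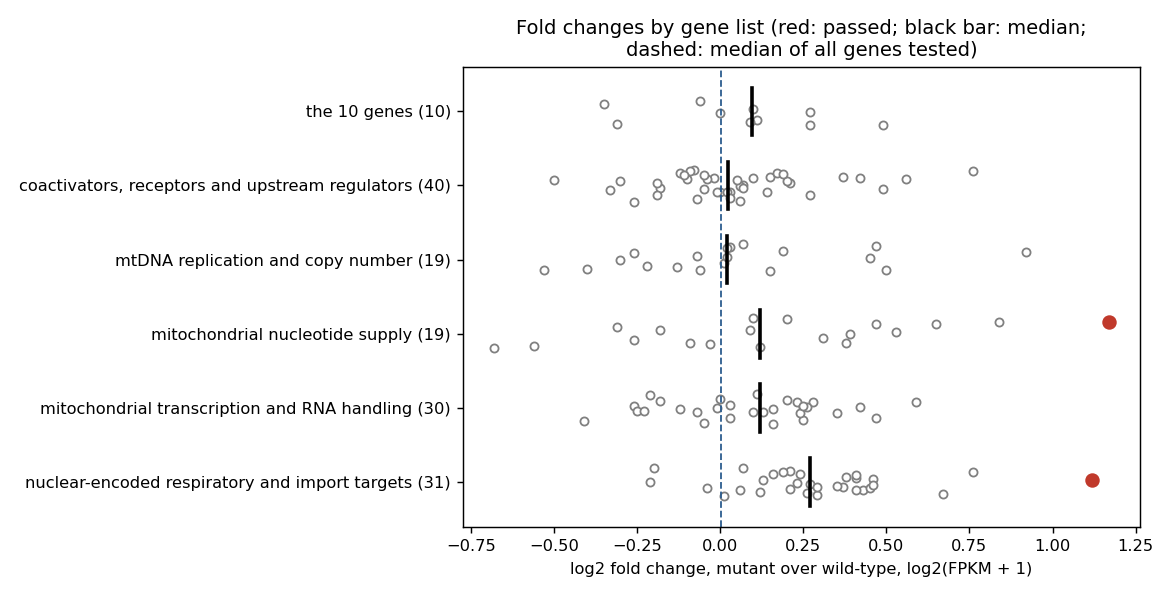
Log2 fold change of mutant over wild-type (x axis, on the log2(FPKM + 1) scale) for every tested gene of each list, with the number of genes in brackets, a black bar at the median, a dashed line at the median of all genes tested and red points for genes that passed. The 2 red points are *slc25a33*, at 1.17, and *cycsb*, at 1.12, and none of the 10 genes at the top is red.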

How the data were processed

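RNA-seq libraries came from 3 pools of 25 MZ *tafazzin* mutant larvae and 3 of wild-type larvae at 5 dpf. Per the methods and the submitters' processing notes, reads were trimmed with Trim Galore 0.4.2, aligned to GRCz11 with STAR 2.5.3 and quantified with Cufflinks 2.2.1. The authors deposited FPKM values per gene and pool. The number of reads per library was not used here, and depth is known as a ratio between pools. The table also holds the authors' Cuffdiff fold changes and p-values, which were not used. Columns show the genotype and a number but no single labelled sample, and served as replicates of their genotype. The p-values set the difference between genotypes against the spread between these pools, with variance partly shared across genes.

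A mean of 0.5 FPKM or more kept 21843 of 27335 genes, and log2(FPKM + 1) was fitted with limma 3.58.1 in R 4.3.3, with a mean-variance trend and Benjamini-Hochberg adjustment over all genes tested. A gene passed at an adjusted p under 0.05. The fit was run on simulated data with independent noise for each gene and changes only in genes of at least 5 FPKM. The simulation had no shifts shared by a whole pool, so it cannot show how calls depend on single pools. No 2 pools shared more than 0.06% of identical values among genes of at least 5 FPKM. The genes, lists and tests were chosen with earlier results of these data known. Of each list the genes that passed were named (at most 4), and where fewer than 2 did, the 3 lowest in p were named. Of 205 further genes listed, 187 were found by symbol and 8 by an older symbol in a RefSeq table, and *pnpt1*, which has several rows, was left out. Alternatives were a pseudocount of 0.1, no filter or one of 5 FPKM, quantile or median scaling, no trend, the column number as a block, and each pool left out. Promoter sequences were not analysed here. Tables and figures were made with Python 3.11.15, pandas 2.3.3 and matplotlib 3.10.9.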

Additional observations from a re-analysis of the deposited data

How the results depend on the processing

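None of the 10 genes passed under any alternative run, and their median log2 fold change lay between 0.04 and 0.12. The filter of 5 FPKM removed *polrmt*, *tfb1m* and *polg* from the test. The log2 fold change of *tfb2m* ranged from -0.01 without wild-type pool 2 to 0.19 without wild-type pool 1, and *gabpa*, at 0.00 with all pools, lay between -0.07 and 0.1 with 1 pool left out. The number of genes passing over the whole table was 199. It was 6 without a filter, 38 without the trend and 15 to 422 with 1 pool left out, the highest without wild-type pool 2. Of the lists, nucleotide supply had 0 genes passing without a filter or without the trend and 0 to 1 with 1 pool left out. The respiratory and import list had 0 without a filter or without the trend and 0 to 2 with 1 pool left out. Mitochondrial transcription and RNA handling had 1, *lrpprc*, with a filter of 5 FPKM, quantile normalization or median scaling, and 0 to 1 with 1 pool left out. The number of fragments behind each value is not known, only the ratio of depth between pools, so no counting error could be given for *polg* and *tfb1m*, the lowest of the 10 genes.

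The column numbers were not taken as a pairing in the main fit, as the methods name no pairing of pools. Deviations from a mean of 3 pools sum to 0, so correlations between them cannot settle whether pools were paired. All correlations between deviations of mutant and wild-type pools were small. They were 0.00262 to 0.0753 for same-numbered pools and -0.0761 to 0.0501 for pools of different number. Whether same-numbered pools shared a factor was not tested. With the number as a replicate block, 353 genes passed, among them 1 of mtDNA replication (*endog*), 2 of nucleotide supply and 3 of the respiratory and import list, and none of the 10. Of the 2 of nucleotide supply, *slc25a33* passed as higher and *slc25a36a* as lower. Not every pool correlated best with its own number.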
